A study of Arabidopsis halleri with 24 samples.

Results

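MT1C encodes a metallothionein and CCS the copper chaperone of superoxide dismutase. They were taken as the probe sets that the platform's probe table assigns to MT1C or to CCS and to no other gene, which gave 261410_at for MT1C and 259511_at for CCS, 2 of the 13513 probe sets with a single gene. The signals come from 24 ATH1 arrays, whose probes were designed on Arabidopsis thaliana, hybridised with total RNA that carried biotin. The organism label is Arabidopsis halleri, a plant known for zinc tolerance and accumulation. The 8 groups of 3 arrays were non-accumulating and accumulating bulks, each as whole root system and as rosette leaves, in control and in high-zinc medium. The high-zinc groups carried a treatment label of 25 µM zinc. All groups shared the growth room, full mineral medium and 10 h of light, with 1 developmental stage label throughout. Each bulk is known to be a pool of plants from a cross of A. halleri with the non-accumulating A. petraea, so a bulk is not a single genotype. For 23 arrays the source name is a bulk. One array has halleri instead, the first of the 3 from non-accumulating roots in control medium, and it was kept in the group of its title. Nothing in the labels tells if replicates were separate plants or pools, and p-values therefore measure only how far these arrays spread, which may be technical.

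Metallothioneins are small proteins that bind copper, zinc and cadmium through the thiols of their many cysteines, and plants hold several types of them with different organ preferences. CCS hands copper to the copper/zinc superoxide dismutases, which remove superoxide in the cytosol and the plastid. In A. thaliana, CCS transcript is known to fall when copper is scarce, through a microRNA that also acts on the dismutase messages.

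The deposited values are MAS5 signals, a linear brightness per probe set in intensity units. A signal also depends on how well the A. halleri transcript matches the A. thaliana probes, so MT1C and CCS levels were each compared across arrays and never with each other, and sequence differences between the bulks under either probe set were not tested. Organ labels were checked with markers. The summed signal of 5 leaf markers (RCA, LHCB4.1, LHCB4.2, PRK and SBPASE) lay between 5497 and 20304 in leaf arrays and between 109 and 299 in root arrays. The summed signal of 3 root markers (PYK10, EXPA7 and EXPA18) lay between 1410 and 2527 in root arrays and between 79.4 and 162 in leaf arrays. None of these sums overlapped between organs. The root marker sum was mostly PYK10, and EXPA7 alone did overlap, with its lowest root array at 40.8 and its highest leaf array at 73.8.

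MT1C was higher in roots than in leaves in every combination of bulk and medium. In control medium, its signal in replicates 1 to 3 was 544, 477 and 374 in roots of the non-accumulating bulk and 374, 734 and 405 in those of the accumulating bulk. Under high zinc, the roots of the non-accumulating bulk had 874, 815 and 396, and those of the accumulating bulk 468, 739 and 678. The root arrays thus spread over more than the distance between any of their group means, and no root group stood clear of another.

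In control leaves, MT1C signals were 117, 209.5 and 183 for the non-accumulating bulk and 143, 181 and 192 for the accumulating one. In high-zinc leaves they were 122, 137 and 192 for the non-accumulating bulk and 79.8, 78.9 and 141 for the accumulating one. The highest leaf signal of MT1C, 209.5, lay below its lowest root signal, 374, so the 12 root and 12 leaf arrays did not overlap. Of the 14403 probe sets tested, 11.1% had every root array above every leaf array.

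**Figure D1:**
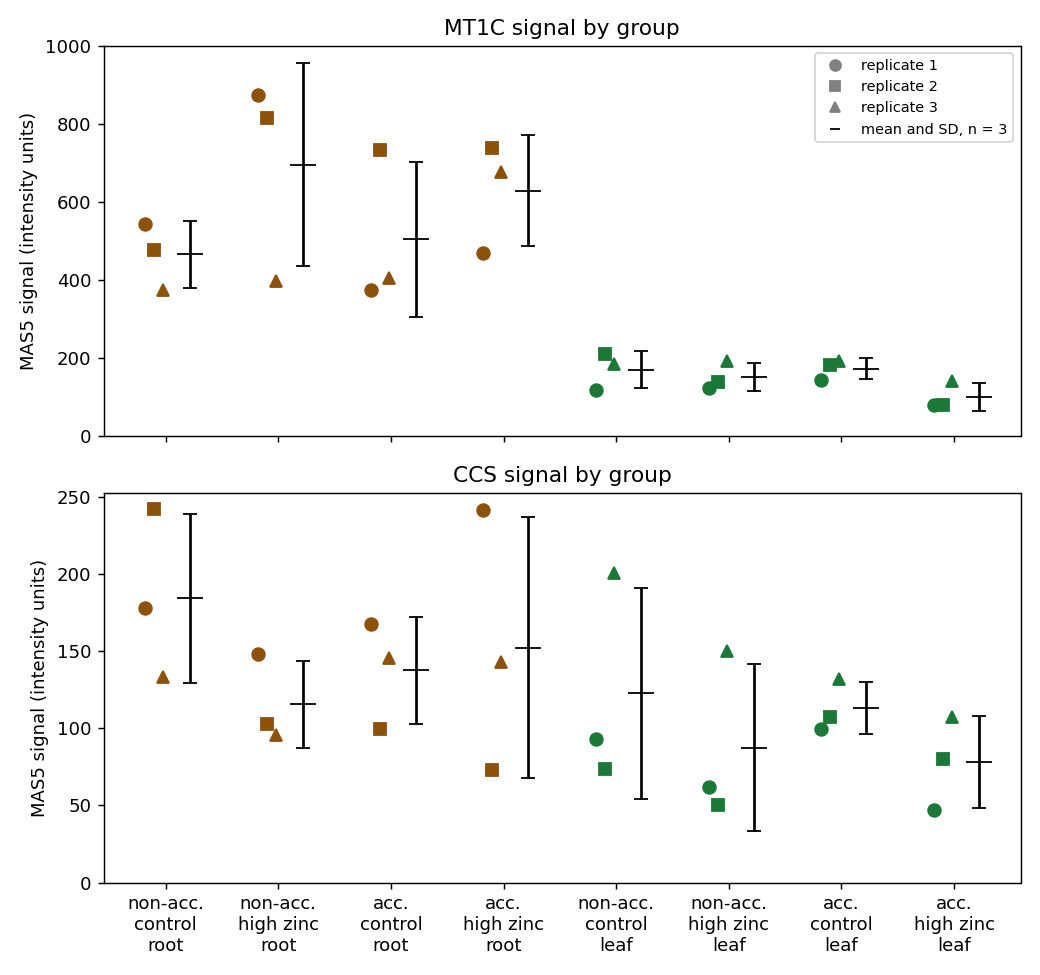
MAS5 signal in intensity units of MT1C (top) and CCS (bottom) in each group of 3 arrays. Points are arrays with the shape giving the replicate number, and the bar beside them is the mean with its SD. MT1C root arrays (brown) start at 374, above the highest leaf array (green) at 209.5, whereas CCS root and leaf arrays overlap.

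Ordered by group mean, MT1C was highest in non-accumulating high-zinc roots at 695 (SD 260, n = 3), followed by accumulating high-zinc roots at 628 (SD 142, n = 3). Accumulating control roots had 504 (SD 199, n = 3) and non-accumulating control roots 465 (SD 85.7, n = 3). The leaf groups followed, with accumulating control at 172 (SD 26.2, n = 3) and non-accumulating control at 170 (SD 47.7, n = 3). Non-accumulating high-zinc leaves had 150.4 (SD 36.6, n = 3) and accumulating high-zinc leaves 99.98 (SD 35.7, n = 3). The only neighbours in this order whose arrays did not overlap were the lowest root group and the highest leaf group, 293 signal units apart.

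The root to leaf difference of MT1C was 1.83 on the log2(signal + 16) scale (SE 0.16, 95% interval 1.51 to 2.16), or 3.56-fold. The test was limma, an empirical Bayes linear model, fitted to all probe sets kept by the filter on low signals, and its Benjamini-Hochberg adjusted p was 1.28e-09. Group by group, the mean MT1C signal in roots was 2.74 times that in leaves in the non-accumulating control and 2.93 times in the accumulating control. With high zinc it was 4.62 times in the non-accumulating and 6.28 times in the accumulating bulk. Each of these 4 comparisons was free of overlap, as were 28.9%, 30%, 28.9% and 28.4% of all probe sets in the same direction. In bulk organs, fewer cells of a type and less RNA per cell cannot be told apart.

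CCS was also higher in roots on average, by a smaller amount and with overlapping arrays. In control medium, its signal in replicates 1 to 3 was 178, 242 and 133 in roots of the non-accumulating bulk and 168, 99.6 and 145 in those of the accumulating bulk. Under high zinc the former had 148, 103 and 95.5 and the latter 241, 72.8 and 143. The widest spread of CCS within a group was in accumulating high-zinc roots, whose lowest and highest arrays were also the lowest and nearly the highest of all roots.

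In control leaves, CCS signals were 93.3, 73.7 and 201 for the non-accumulating bulk and 99.7, 107 and 132 for the accumulating one. In high-zinc leaves they were 62.1, 50.5 and 149.8 for the non-accumulating bulk and 47.2, 79.7 and 107 for the accumulating one. Replicate 3 was the highest array in all 4 leaf groups, and in the non-accumulating leaves it was far above the other two. The lowest CCS signals, 47.2 and 50.5, lay under the 53.3 that served as the filter on leaf signals, so CCS was close to the low end of what was tested there.

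By group mean, the order of CCS was non-accumulating control roots at 184 (SD 54.9, n = 3), accumulating high-zinc roots at 152 (SD 84.5, n = 3) and accumulating control roots at 138 (SD 34.7, n = 3). Non-accumulating control leaves at 123 (SD 68.4, n = 3) came next, above non-accumulating high-zinc roots at 115 (SD 28.3, n = 3). Accumulating control leaves had 113 (SD 16.7, n = 3), non-accumulating high-zinc leaves 87.5 (SD 54.3, n = 3) and accumulating high-zinc leaves 78.1 (SD 30.1, n = 3). Every pair of neighbours in this order overlapped, so the order of the CCS group means is not fixed beyond the spread of the arrays.

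The root to leaf difference of CCS was 0.51 on the log2(signal + 16) scale (SE 0.19, 95% interval 0.11 to 0.91), or 1.42-fold, with a limma adjusted p of 0.0252. MT1C and CCS were therefore both called higher in roots, in a comparison that called 67.9% of 14403 probe sets, 40.4% higher and 27.4% lower, with a median difference over all probe sets of 0.13. The call of CCS was narrow. Median centring of the arrays gave a difference of 0.45 and an adjusted p of 0.0554. Leaving out replicate 1 of the accumulating bulk in high zinc gave 0.0558 when its root array was dropped and 0.0523 when its leaf array was. Dropping the leaf array of replicate 2 in the non-accumulating bulk gave 0.0521 in high zinc and 0.0518 in control. The other 20 omissions kept the call. The leaf arrays of replicate 3, where CCS was high, worked the other way. Without these 4 arrays the difference of CCS was 0.79 (SE 0.17) with an adjusted p of 0.000519, and that of MT1C was 1.97 (SE 0.17). With array weights, which let limma count variable arrays for less, the difference of CCS was 0.80. Mean CCS in leaves was 147 in replicate 3 and 76.7 in replicates 1 and 2. In roots it was 129 and 156, so a single effect per replicate number over both organs could not take up this pattern.

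**Figure D2:**
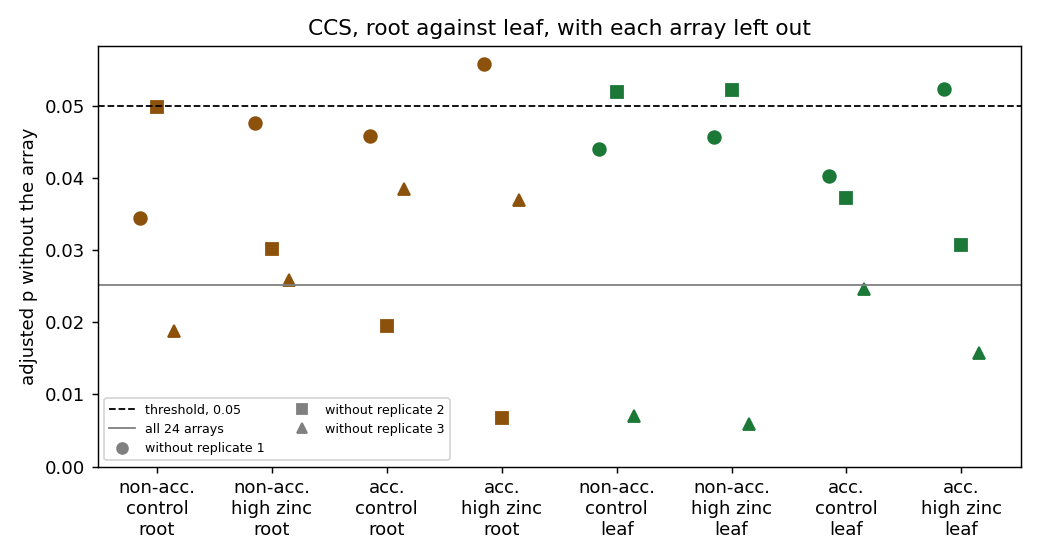
Adjusted p of the CCS root to leaf difference (limma) after leaving out each of the 24 arrays, placed by the group of the array left out and with the shape giving its replicate number. The solid line is the value with all arrays, 0.0252, and the dashed line the threshold of 0.05. The 4 points above the dashed line range up to 0.0558, and the lowest, 0.00594, is without the non-accumulating bulk's high-zinc leaf array of replicate 3.

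With high zinc, MT1C had a higher mean in roots of both bulks and a lower mean in leaves of both bulks. Zinc was tested over both bulks together and not in each bulk, and the difference passed in neither organ. In roots the log2 difference over both bulks was 0.42 (SE 0.22, 95% interval -0.06 to 0.91, adjusted p = 0.744, limma). The mean MT1C signal was 1.49 times the control in non-accumulating roots and 1.25 times in accumulating roots. Arrays overlapped between media in both bulks. The non-accumulating bulk's high-zinc root array of replicate 3, at 396, and the accumulating bulk's control root array of replicate 2, at 734, lay near the values of the other medium. Without the former the difference was 0.60 and without the latter 0.57, with adjusted p of 0.386 and 0.465. Of 12489 probe sets limma called 0% for the zinc difference of roots, and 854 had an unadjusted p under 0.05. It called 6 without the control root array at 734. The summed signal of the root markers also set replicate 3 apart, with 2169 to 2527 in its 4 root arrays against 1410 to 1761 in the other 8. This sum is mostly PYK10, with root group means of 1522 to 1693, against 64.9 to 134 for EXPA7 and 97.5 to 175 for EXPA18. It therefore does not show that EXPA7 and EXPA18 were higher in replicate 3. MT1C was highest in replicate 3 in 0 of the 4 root groups and lowest in 2, and the part of these arrays' state in the MT1C values was not tested.

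In leaves the zinc difference of MT1C was -0.44 on the log2 scale (SE 0.19, 95% interval -0.86 to -0.02), with an unadjusted p of 0.0415 and an adjusted p of 0.506 in limma. The mean in high zinc was 0.885 times the control in the non-accumulating bulk and 0.581 times in the accumulating bulk. In the accumulating bulk all 3 high-zinc leaf arrays lay below all 3 control arrays, as they did for 4.9% of 12688 probe sets. The separation was narrow, with replicate 3 in high zinc at 141.2 and replicate 1 in control at 142.5. Whether the bulks differ in this zinc response was tested as an interaction, which was -0.58 (SE 0.38, 95% interval -1.42 to 0.25, adjusted p = 1.00).

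CCS had lower means with high zinc in 3 of the 4 combinations of organ and bulk, and did not pass in either organ. In leaves the log2 difference was -0.47 (SE 0.28, 95% interval -1.07 to 0.14, adjusted p = 0.646, limma). The mean was 0.714 times the control in non-accumulating and 0.691 times in accumulating leaves. The leaf arrays overlapped between media in both bulks. The difference was -0.28 without the non-accumulating bulk's control leaf array of replicate 3. Without that bulk's high-zinc leaf array of replicate 3 it was -0.67 (unadjusted p = 0.0197, adjusted p = 0.315, limma). In roots the log2 difference was -0.28 (SE 0.24, 95% interval -0.79 to 0.23, adjusted p = 0.832), with 0.627 times the control mean in non-accumulating and 1.11 times in accumulating roots. It was -0.47 without the accumulating bulk's high-zinc root array of replicate 1 (unadjusted p = 0.0429, adjusted p = 0.698) and -0.085 without that of replicate 2. For MT1C in roots the bulk by zinc interaction was -0.15 (SE 0.45, adjusted p = 0.998). That of CCS was 0.62 in roots (SE 0.47, 95% interval -0.40 to 1.64, adjusted p = 0.998) and -0.07 in leaves (SE 0.55, 95% interval -1.27 to 1.14, adjusted p = 1.00). The value in roots was 0.25 without the accumulating high-zinc array of replicate 1 and 1.01 without that of replicate 2 (unadjusted p = 0.0247, adjusted p = 0.999).

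The leaf results depended on how the replicate 3 arrays were treated. Limma called 0.0315% of 12688 probe sets for zinc in leaves, and 1219 of 13193 when these 4 arrays were omitted. In that fit the zinc difference in leaves was -0.57 for MT1C (SE 0.19, adjusted p = 0.0856) and -0.54 for CCS (SE 0.17, adjusted p = 0.0848). With array weights, both were called lower in high-zinc leaves, MT1C by a log2 difference of -0.45 (adjusted p = 0.0430) and CCS by -0.66 (adjusted p = 0.0210). That setting called 2427 of the 12688 probe sets. The leaf markers moved with the same arrays. Their summed signal was 14091 to 15202 in non-accumulating control leaves and 10862 to 14541 in accumulating control leaves. In high zinc it was 8009 and 7035 in replicates 1 and 2 and 20304 in replicate 3 of the non-accumulating bulk, and 5613, 5497 and 15671 in the accumulating bulk. All 5 leaf markers were tested in leaves and 0 of them passed for zinc. Of the senescence list, 2 of 7 genes were named by a probe set alone, SAG29 and SAG101, and neither passed the filter in leaves. The part of these leaf arrays' state in the MT1C and CCS differences was not tested.

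The test of whether zinc acted differently in the organs gave a log2 difference of 0.86 for MT1C (SE 0.31, 95% interval 0.21 to 1.51), as the root to leaf difference in high zinc minus that in control. Its unadjusted p was 0.0119 and its adjusted p 0.623 in limma, which called 1 of 14403 probe sets, or 0.00694%. The adjusted p was 0.104 without the leaf arrays of replicate 3 and 0.0298 with array weights. Both settings also called many more probe sets for this interaction than the main fit did. For CCS the same interaction was 0.18 (SE 0.39, 95% interval -0.62 to 0.99, adjusted p = 0.971).

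**Figure D3:**
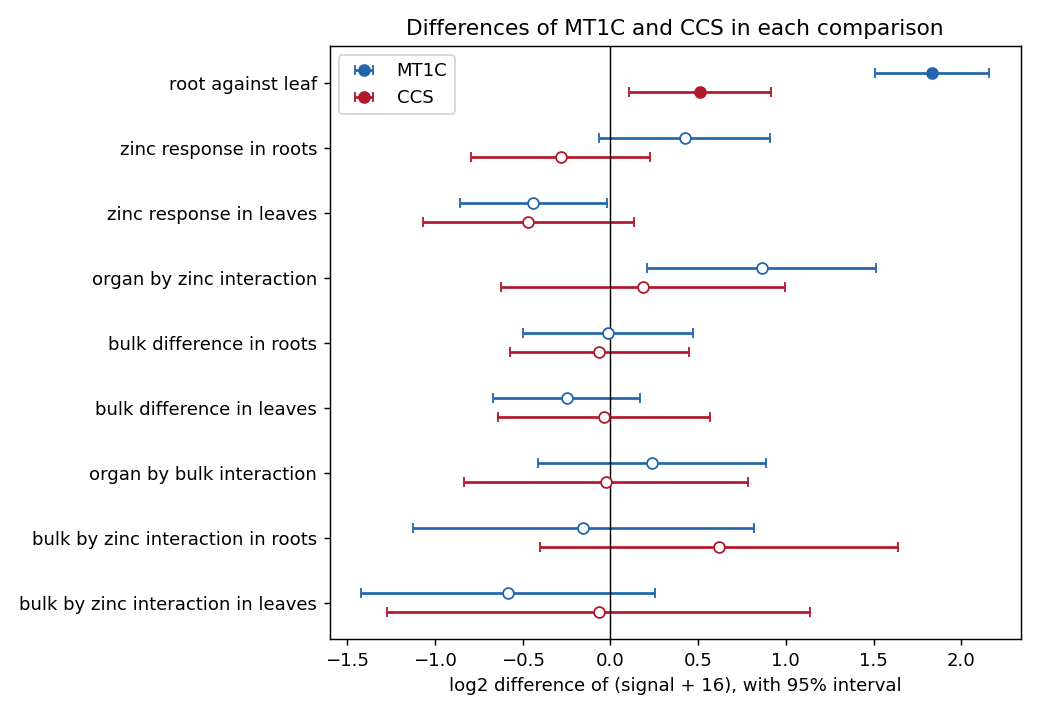
Log2 differences of (signal + 16) of MT1C (blue) and CCS (red) in the 9 comparisons, with 95% intervals from limma. Filled points passed an adjusted p of 0.05 and open points did not. Only root against leaf passed, at 1.83 for MT1C and 0.51 for CCS. Zinc minus control, accumulating minus non-accumulating and root minus leaf are the directions.

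Between the bulks neither gene differed beyond the spread of the arrays. MT1C signals in roots ran from 374 to 874 with a median of 511 in the non-accumulating bulk, and from 374 to 739 with a median of 573 in the accumulating bulk. Its log2 difference, accumulating minus non-accumulating, was -0.01 in roots (SE 0.22, 95% interval -0.50 to 0.47, adjusted p = 0.993, limma). In leaves it was -0.25 (SE 0.19, 95% interval -0.67 to 0.17, adjusted p = 0.999). The interval in roots reaches 0.50 down and 0.47 up on the log2 scale, so equal levels of MT1C were not shown.

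CCS signals in roots ran from 95.5 to 242 with a median of 140 in the non-accumulating bulk, and from 72.8 to 241 with a median of 144 in the accumulating bulk. The log2 difference was -0.06 in roots (SE 0.24, 95% interval -0.57 to 0.45, adjusted p = 0.968, limma) and -0.04 in leaves (SE 0.28, 95% interval -0.64 to 0.57, adjusted p = 0.999). Without the leaf arrays of replicate 3 the difference of CCS in leaves was 0.19 (adjusted p = 0.700). No bulk by zinc interaction of any probe set was called in either organ, with 470 in roots and 197 in leaves at an unadjusted p under 0.05. Between the bulks limma likewise called 0% of probe sets in either organ, with 862 in roots and 546 in leaves at an unadjusted p under 0.05. The organ by bulk interaction was 0.24 for MT1C (SE 0.31) and -0.03 for CCS (SE 0.39), each with an adjusted p of 0.999, and 0% of probe sets were called, with 372 at an unadjusted p under 0.05.

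Arrays with more MT1C also tended to have more CCS in leaves, a relation that failed adjustment over the relations computed. Over the 12 leaf arrays, the log2 signals of MT1C and CCS had a Pearson r of 0.61 and a Spearman rho of 0.59, with permutation p of 0.0357 and 0.0467, two-sided. Adjusted over the 3 relations computed, these were 0.107 and 0.140. Arrays were permuted freely across groups and replicate numbers, so these p also take in differences between groups and between replicates. Replicate 3 was the highest leaf array of CCS in 4 of 4 groups and of MT1C in 3 of 4, and both genes had lower leaf means in high zinc. Without the 2 arrays farthest from the median of MT1C, r was 0.50. Within the 8 leaf arrays of replicates 1 and 2, r was 0.39 (exact permutation p = 0.326) and rho 0.36 (exact permutation p = 0.389), and r was 0.68 without the 2 farthest arrays, so the direction was the same and the test was not passed. The replicate 3 leaves, 4 arrays, were too few to give their own value. Over the 12 root arrays r was -0.38 (permutation p = 0.224) and rho -0.22 (permutation p = 0.484), with r of -0.39 after leaving out the 2 farthest arrays. Whether the relation differs between the organs was not tested.

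**Figure D4:**
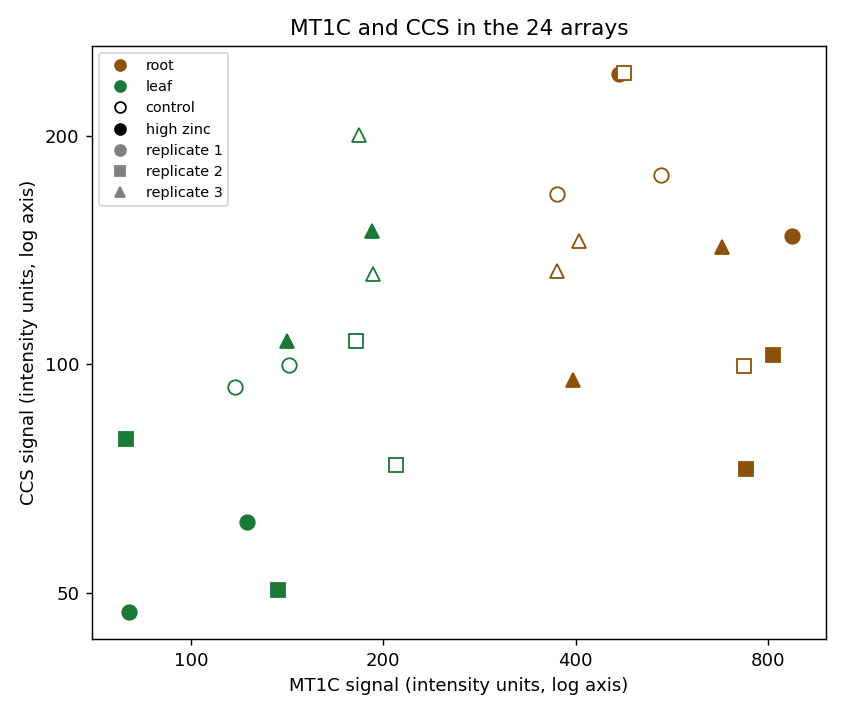
CCS signal against MT1C signal in the 24 arrays, both in intensity units on log axes. Colour gives the organ, filled points are high zinc, and the shape gives the replicate number. The leaf arrays lie at MT1C signals of 78.9 to 209.5 and the root arrays at 374 to 874, and the replicate 3 leaves (green triangles) lie at CCS signals from 107 to 201.

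Of 51 genes entered in lists of metallothioneins, phytochelatin and glutathione synthesis, copper chaperones, superoxide dismutases, copper transport and copper proteins, the probe table named 6 alone, MT1C and CCS included. The other 4 were the copper chaperone list's CUTA, AT1G02410 (entered as the cytochrome oxidase assembly gene COX11) and AT1G53030 (entered as a second COX17), and ARPN, which encodes the secreted blue copper protein plantacyanin. The remaining genes of these lists were not analysed here. AT1G53030 had group means of 1.11 to 7.73 and passed the filter in no fit.

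The other 3 were all called between organs, 1 higher and 2 lower in roots, in a comparison that called 67.9% of all probe sets. ARPN was higher in roots, by 2.45 on the log2 scale (SE 0.11, adjusted p = 1.03e-14, limma). In the non-accumulating bulk in control medium its mean signal was 256 (SD 35.7, n = 3) in roots and 21.0 (SD 5.30, n = 3) in leaves. CUTA was lower in roots by -0.63 (SE 0.14, adjusted p = 0.000510) and AT1G02410 by -0.43 (SE 0.11, adjusted p = 0.00112). With the 2 members, 3 of 5 tested genes were higher and 2 lower in roots, with a median of 0.51 against 0.13 over all probe sets. Over all probe sets 40.4% were called higher and 27.4% lower, and nothing is read from the count of 5. Of the copper chaperone list, CCS alone was higher in roots, and CUTA and AT1G02410 were lower.

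None of these list genes was called for zinc or between the bulks, where 0% of all probe sets were called for zinc in roots, 0.0315% for zinc in leaves and 0% between the bulks in either organ. AT1G02410 had a zinc difference of 0.35 in roots (SE 0.15, unadjusted p = 0.0417, adjusted p = 0.719, limma) and a bulk by zinc interaction of -0.76 (SE 0.31, unadjusted p = 0.0274, adjusted p = 0.998). Its mean signal in non-accumulating roots was 102 (SD 17.4, n = 3) in control and 181 (SD 48.8, n = 3) in high zinc. In accumulating roots it was 133 (SD 18.0, n = 3) and 131 (SD 36.2, n = 3). For zinc in leaves the median over the 4 list genes tested was -0.25, against 0.00 over all probe sets, with MT1C and CCS at the low end and CUTA (-0.07) and AT1G02410 (-0.02) near 0. In roots the median over 4 genes was 0.07, against 0.00 over all probe sets, with ARPN at -0.20.

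Among the other 7869 probe sets with a single gene and past the filter, those most like MT1C over the 24 arrays were AT2G21045, AT1G18910, AT2G44380, AT5G07080 and AT3G51330. Their Pearson correlations of log2 signal with MT1C were 0.951, 0.950, 0.950, 0.946 and 0.941, values that include the difference of MT1C between the organs. After each organ's mean was subtracted, the closest to MT1C were AT4G30460, AT5G16040, AT1G62480, AT3G07720 and AT1G29040, with correlations from 0.764 down to 0.720. None of the first 5 was among the second 5. For CCS the correlations were lower. AT1G67870 (0.758), 3xHMG-box1 (0.738), AT3G51950 (0.722), AT5G19830 (0.720) and AT3G62970 (0.719) came first over all arrays. With organ means subtracted the order for CCS was AT2G22650 (0.742), AT1G67870 (0.724), AT5G03880 (0.707), AAE15 (0.696) and AT1G12250 (0.684), so AT1G67870 stood in both lists of CCS. These are descriptions of the 24 arrays, which share their labelling and scaling.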

How the data were processed

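The authors deposited 1 table of MAS5 signals (intensity, linear scale) for 22810 probe sets on 24 arrays, per the submitters' processing notes. The MAS5 version, its scaling and any detection calls were not given in the sources used. The mean of each array without the lowest and highest 2% of probe sets was 100.006 to 100.009, so the deposited scaling was kept. Precision is limited by having 3 arrays per group. Control probe sets, 64 in number, were left out. The probe table gave 13513 probe sets 1 gene, 503 several and 8730 of the rest none. Groups came from the array titles.

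Signals were tested as log2(signal + 16) with limma 3.58.1 in R 4.3.3, with 1 mean per group, a variance trend, and Benjamini-Hochberg adjustment over the whole table at 0.05. Roots and leaves were fitted separately, and all arrays together for organ comparisons. Probe sets were kept where the highest group mean of log2(signal + 16) exceeded that of the median signal of the fit (56.3 in roots, 53.3 in leaves, 54.8 overall). The fit was also run on simulated data with noise drawn independently for each array. Arrays that share a deviation by replicate number were not covered by it. Members, lists and naming rules were chosen with earlier results of these data known. The named genes were both members, the list genes that a probe set names alone, and the 5 most alike probe sets on each of 2 scales. Alternatives were other pseudocounts and filters, quantile normalization, median centring, array weights, a fit without the variance trend and a replicate block. Others were plain probe sets, 1 fit of all arrays, omission of the leaf arrays of replicate 3 and of each array in turn. Other filters, no variance trend, the block, plain probe sets and 1 fit of all arrays change errors or the probe sets, not a difference. Every group held each replicate number once, so the block is balanced.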

Additional observations from a re-analysis of the deposited data

How the results depend on the processing

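The 18 results of MT1C and CCS were recomputed under 11 or 12 settings each, 201 values in all, of which 193 kept direction and side of the threshold. The root to leaf call of MT1C held in all of them, with differences from 1.56 (pseudocount 64) to 2.03 (array weights), and that of CCS was lost only with median centring (0.45, adjusted p = 0.0554). Array weights added calls for zinc in leaves, MT1C (-0.45) and CCS (-0.66), and for the organ by zinc interaction of MT1C (0.92), and turned the organ by bulk value of MT1C to -0.071. Median centring turned the bulk difference of MT1C in roots to 0.030 and that of CCS in leaves to 0.015, the latter also 0.19 without the leaf arrays of replicate 3. None of the values that turned was past the threshold. The cause of these shifts was not tested. CCS fell below the 75th percentile filter in leaves, so it has no value there.

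Leaving out each array in turn changed 39 of 288 values. The root to leaf difference of CCS ranged from 0.42 to 0.61. Other ranges that crossed 0, all without a call, were -0.19 to 0.088 (MT1C, bulk in roots), -0.25 to 0.13 (CCS, bulk in roots) and -0.51 to 0.14 (MT1C, bulk by zinc in roots). They were -0.17 to 0.16 (CCS, bulk in leaves), -0.44 to 0.34 (CCS, bulk by zinc in leaves), -0.23 to 0.17 (CCS, organ by bulk) and -0.0037 to 0.39 (CCS, organ by zinc). Omitting the array with the source name halleri left the CCS root to leaf difference at 0.51 (adjusted p = 0.0345).

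The main tests leave out replicate numbers, although same-numbered arrays tended to deviate alike. Deviations of same-numbered arrays correlated by -0.18 to 0.40 (mean 0.15) among root arrays and by -0.02 to 0.72 (mean 0.30) among leaf arrays. The mean between different numbers, -0.07 in roots and -0.14 in leaves, is no baseline, as deviations in a group sum to 0. Of the arrays, 9 of 12 in roots and 8 of 12 in leaves matched best with their own number. The likeness was computed within each organ only. The organ tests treated root and leaf arrays of the same bulk, medium and number as independent, and whether these shared plants was not tested. A replicate block cannot move a difference here, so CCS root to leaf stayed 0.51 (adjusted p = 0.0192). No call of either gene changed. The block lowered the limma p of zinc in leaves. It became 0.00888 for MT1C (adjusted 0.171, against 0.506) and 0.0170 for CCS (adjusted 0.223, against 0.646). The 4 probe sets called for zinc in leaves became 61 with the block, 111 in 1 fit of all arrays, 7 with quantile normalization, 2 without a filter or a variance trend, and 1 to 12 with single arrays left out, the highest without the non-accumulating bulk's high-zinc leaf array of replicate 3. The 1 called for the organ by zinc interaction became 0 to 3 under the other settings, except 1143 with array weights and 620 without the leaf arrays of replicate 3, and 1 to 16 with single arrays left out, the highest without the same array. With array weights 234 were called between bulks in leaves, against 0, and 4 in 1 fit of all arrays.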
